A study of Mus musculus with 18 samples.

Results

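Dual-specificity phosphatases were followed in regulatory and other T cells sorted from B16 melanomas and from spleens. A set of 7 genes was chosen by name, with earlier results of these data known, namely Dusp1, Dusp2, Dusp4, Dusp5, Dusp6, Dusp10 and Dusp11. Of these, 6 were named in the array's platform annotation and had 14 probes, out of 46237 probes in all; Dusp5 had no named probe and was not analysed here. All 14 probes passed the filter on low signal, which asked for a detection p-value below 0.05 on 3 or more of 18 arrays and which 27474 probes passed in all. The series had 14581 named genes past this filter, and each probe was tested on its own. Probes of a gene are numbered from the brightest, and because they measure the same transcripts they are not replicates of each other.

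Each of the 6 groups had 3 arrays. Tumour Treg, tumour CD8 and tumour Tconv cells are set against spleen Treg, spleen CD8 and spleen Tconv cells. Treg cells are regulatory T cells, gated as CD4+ CD25+ Foxp3+; Tconv cells are conventional CD4 T cells, gated as CD4+ Foxp3-; CD8 cells were CD8+ CD4-. All gates excluded CD11b+ cells. All groups came from female C57BL/6 mice of the genotype Foxp3-GFP-DTR-CD90.1, named for Foxp3, the green fluorescent protein GFP, a diphtheria toxin receptor (DTR) and the surface marker CD90.1. Each mouse received 50000 B16F10 melanoma cells under the skin, and tissue was taken once the tumour reached about 10 mm. The spleens were thus from mice that had been given tumour cells, and no spleen from a mouse without tumour cells was analysed here. Isolated cells were pooled before sorting, from a number of animals that the labels do not state, and 2.5 ng of RNA per sample was amplified. The mice's age, and whether the replicates were separate pools of animals, are not given in the sources used here, so the p-values measure the spread between these arrays. Each replicate number was 1 BeadChip (the slide that carries the arrays), and each group kept the same array position on all 3 BeadChips, so group and position cannot be told apart.

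Mean raw signal was 135 to 156 on the tumour Treg arrays and 117 to 143 on all others, and at most 45.2% of probes were detected on an array; the number of arrays limits the precision. Among the marker lists, 6 of 8 T cell genes had a detected probe, and their summed intensity of 6790 to 8570 spanned all groups. Between tumour and spleen, 0 of their 10 probes were called, beside 2.11% of all tested probes in Treg, 0.863% in CD8 and 0.91% in Tconv cells. The Treg marker sum was 1240 to 1350 in tumour Treg cells, 800 to 897 in spleen Treg cells and 119 to 252 in the other 4 groups. In such bulk samples, fewer cells of a type and less RNA per cell cannot be told apart.

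Dual-specificity phosphatases remove phosphate from both the threonine and the tyrosine of the activation loop of MAP kinases, and so switch off ERK, JNK and p38. Several of their genes are themselves induced by MAP kinase signalling, as part of a negative feedback loop that follows stimulation of the T cell receptor. Dusp1, Dusp2, Dusp4 and Dusp5 encode inducible nuclear enzymes, Dusp6 encodes a cytoplasmic enzyme selective for ERK, and Dusp10 encodes an enzyme that prefers JNK and p38. Dusp11 is an atypical member that acts on the 5′ phosphates of RNA rather than on MAP kinases.

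Promoter windows, from 250 bases before to 50 bases after the gene's start, were read from RefSeq (GRCm38.p6) for 6 of the 7 genes; Dusp4 had no entry. Those of Dusp1 and Dusp6 are shown because they differ in what a motif search found, so the pair was picked for its contrast. The matches in the other windows are given below. Capitals mark matches on either strand to TGACG (a core of the cAMP response element), to the AP-1 site, to the ETS core or to the TATA box, whose letters are given after the sequences.
Dusp1, chr17:26508423-26508722, minus strand: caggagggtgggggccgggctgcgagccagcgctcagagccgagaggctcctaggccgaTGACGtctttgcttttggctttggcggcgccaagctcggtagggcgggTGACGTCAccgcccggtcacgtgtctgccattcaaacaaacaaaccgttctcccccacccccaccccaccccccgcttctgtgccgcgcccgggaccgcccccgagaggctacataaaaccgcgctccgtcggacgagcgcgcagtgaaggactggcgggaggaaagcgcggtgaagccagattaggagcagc
Dusp6, chr10:99262981-99263280, plus strand: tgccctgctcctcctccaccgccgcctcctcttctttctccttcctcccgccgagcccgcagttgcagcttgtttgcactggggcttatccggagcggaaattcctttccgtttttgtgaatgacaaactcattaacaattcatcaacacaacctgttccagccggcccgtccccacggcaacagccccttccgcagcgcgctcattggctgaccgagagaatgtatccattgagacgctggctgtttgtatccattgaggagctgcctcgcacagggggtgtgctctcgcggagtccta

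The Dusp1 window held TGACGTCA, the palindromic cAMP response element, which 1.79% of 32851 mouse promoter windows of this length hold. It held 3 matches to TGACG in all, of which 2 lie inside that element on opposite strands, and 20.8% of windows hold this motif. The Dusp1 window also held 3 matches to the GC box GGGCGG (35.7% of windows). The AP-1 site was searched as TGANTCA (7.81% of windows hold it). The ETS core was searched as CCGGAA (14.9% of windows). The TATA box was searched as TATAAA (13.6% of windows). Neither window held any of these 3, and the Dusp6 window held no match to any motif searched, which says only that these letters are not there. Of the windows not shown, those of Dusp2, Dusp5 and Dusp11 each held 1 match to TGACG. Those of Dusp2 and Dusp10 each held 3 matches to the GC box, and that of Dusp5 held 1. None of the windows not shown held TGACGTCA, the AP-1 site, the ETS core or the TATA box. A match is a description of the letters, not a site.

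Dusp1 and Dusp4 were the members that changed: Dusp1 was higher in tumour for every T cell type and highest in Treg cells of each tissue, and Dusp4 was higher in Treg cells of both tissues and higher again in tumour than in spleen Treg cells. The Dusp4 call between tumour and spleen Treg cells was near the threshold at probes 1, 2 and 3 (limma adjusted p = 0.0245, 0.0441 and 0.0479). Each of these probes lost it without any single one of the Treg arrays, while probe 4 kept it on those removals. Dusp6 was lower in tumour Treg than in tumour CD8 cells, also a call near the threshold. Dusp2, Dusp10 and Dusp11 passed no test. A probe is called here where its limma p-value, adjusted over all 27474 tested probes, was below 0.05.

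Counted over the 14 probes, 5 were higher and 0 lower in tumour than in spleen Treg cells, beside 1.41% of all tested probes higher and 0.702% lower. In CD8 cells 1 was higher and 0 lower between tumour and spleen (0.644% and 0.218% of all probes), and in Tconv cells 1 was higher and 0 lower (0.761% and 0.149%). In tumours, 5 were higher in Treg than in CD8 cells and 1 was lower (2.1% and 1.28%), and 5 were higher in Treg than in Tconv cells and 0 lower (1.51% and 0.735%). In spleens, 5 were higher in Treg than in CD8 cells and 0 lower (1.31% and 0.848%), and 5 were higher in Treg than in Tconv cells and 0 lower (0.903% and 0.386%). Each count of 5 is 1 Dusp1 probe and 4 Dusp4 probes, so it stands for 2 genes. Because the genes were chosen with earlier results known, the counts beside these shares are a description only. Between CD8 and Tconv cells limma called 0 of 14 in tumours (0.379% of all probes in either direction), where 2 had an unadjusted p under 0.05, and 0 higher and 1 lower in spleens (0.4% and 0.244%). A further pair of tests asked whether the tumour minus spleen difference was unequal between cell types. There limma called 0 of 14 for Treg against CD8 cells (0.175% of all probes in either direction) and 0 of 14 for Treg against Tconv cells (0.12%), where 2 and 3 had an unadjusted p under 0.05. The median difference over the 14 probes was 0.08 in Treg cells, 0.22 in CD8 cells and 0.19 in Tconv cells between tumour and spleen, beside -0.01 over all probes in each.

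Dusp1 was higher in tumour than in spleen for all 3 T cell types, and within each tissue it was highest in Treg cells. It encodes an early-induced phosphatase of p38 and JNK. Its 1 probe was detected on all 18 arrays. On the log2 intensity scale it read 9.80, 10.20 and 9.94 on BeadChips 1, 2 and 3 in tumour Treg cells, against 8.30, 8.67 and 8.46 in spleen Treg cells. In CD8 cells it read 7.56, 8.01 and 7.84 in tumour, against 6.25, 5.85 and 5.33 in spleen. In Tconv cells it read 8.58, 8.83 and 8.39 in tumour, against 7.46, 7.28 and 6.78 in spleen. In each cell type every tumour array lay above every spleen array.

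The tumour minus spleen difference of Dusp1 was 1.5 ± 0.23 (SE, n = 3 arrays each) in Treg cells, a 2.83-fold higher intensity (limma adjusted p = 0.00185). It was 1.99 ± 0.23 in CD8 cells (3.98-fold, limma adjusted p = 3.85e-04). It was 1.43 ± 0.23 in Tconv cells (2.70-fold, limma adjusted p = 0.00506). Within BeadChips 1, 2 and 3 the differences were 1.51, 1.53 and 1.48 in Treg cells, 1.31, 2.16 and 2.51 in CD8 cells, and 1.12, 1.56 and 1.62 in Tconv cells, so each pair had the tumour array higher. The test of whether the tumour difference itself was unequal between Treg and Tconv cells gave 0.07 ± 0.33 (limma adjusted p = 0.996), and between Treg and CD8 cells -0.49 ± 0.33 (limma adjusted p = 0.773). Dusp1 was past the threshold on every removal of 1 array in these tumour against spleen comparisons. Without all arrays of replicate number 2, which leaves 12 arrays, the adjusted p was 0.117 in Treg cells, 0.0626 in CD8 cells and 0.246 in Tconv cells, and without number 3 it was 0.114 in Tconv cells.

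**Figure D1:**
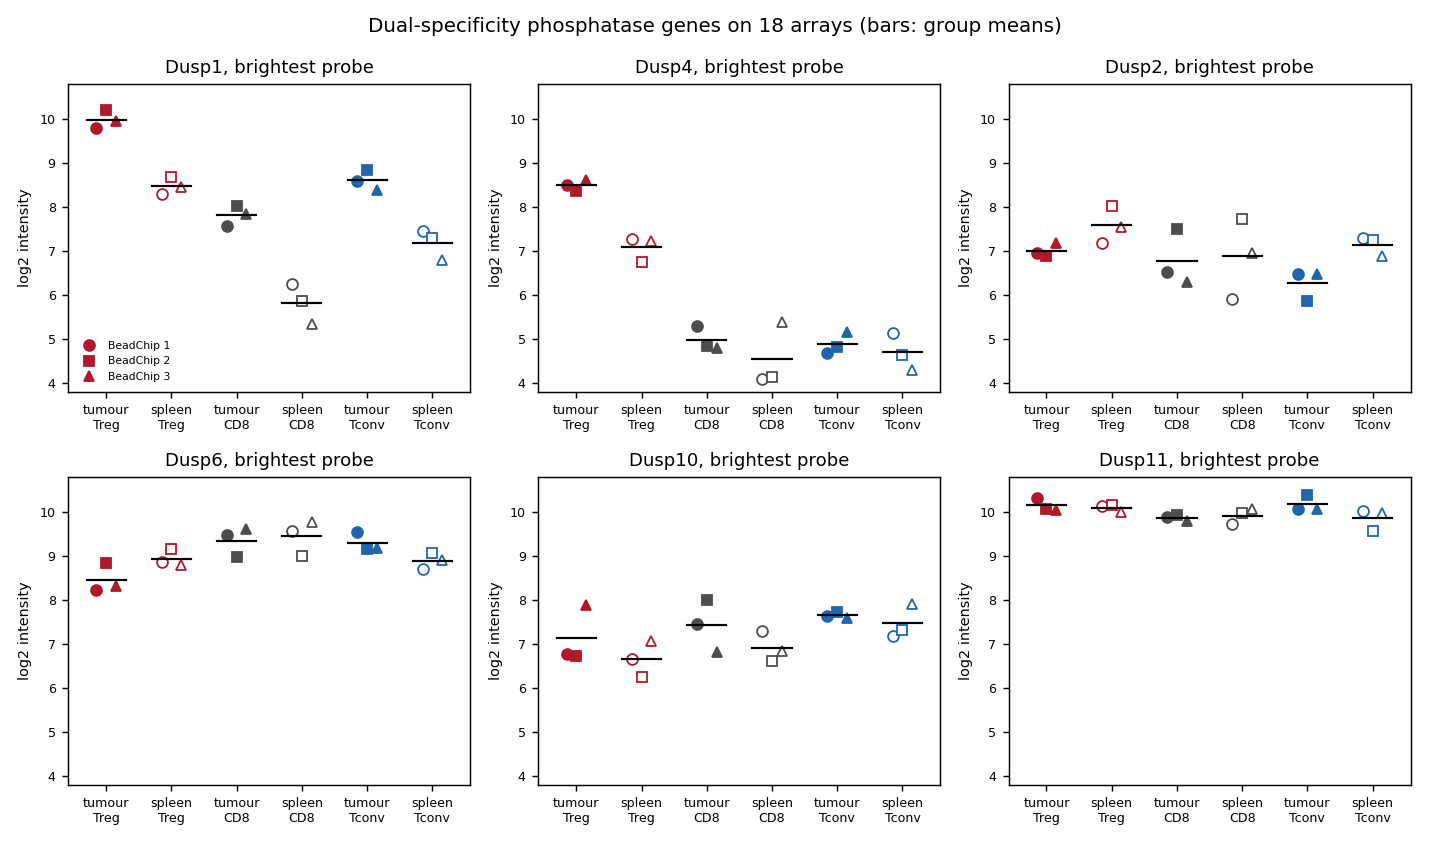
Log2 intensity (y axis) of the brightest probe of each of 6 dual-specificity phosphatase genes in the 6 groups (x axis), with tumour filled and spleen open, Treg red, CD8 grey and Tconv blue, the symbol giving the BeadChip and the bar the group mean. Dusp1 and Dusp4 separate tumour Treg cells from every other group, while the Dusp11 group means lie between 9.86 and 10.18.

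Among T cells of the same tissue, Dusp1 was highest in Treg cells. In tumours it was higher in Treg than in CD8 cells by 2.18 ± 0.23 (limma adjusted p = 4.65e-05) and higher than in Tconv cells by 1.38 ± 0.23 (2.60-fold, limma adjusted p = 0.00358). In spleens it was higher in Treg than in CD8 cells by 2.67 ± 0.23 (6.34-fold, limma adjusted p = 6.42e-06) and higher than in Tconv cells by 1.31 ± 0.23 (limma adjusted p = 0.00749). These comparisons share the Treg arrays. Spleen CD8 cells were lower than spleen Tconv cells by a difference of -1.36 ± 0.23 (limma adjusted p = 0.0113). In tumours the CD8 minus Tconv difference was -0.80 ± 0.23 and was not past the threshold (limma adjusted p = 0.276), although the groups did not overlap.

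The order of the Dusp1 group means was tumour Treg (9.98 ± 0.20, SD, n = 3), tumour Tconv (8.60 ± 0.22), spleen Treg (8.48 ± 0.19), tumour CD8 (7.81 ± 0.23), spleen Tconv (7.17 ± 0.35) and spleen CD8 (5.81 ± 0.46). Tumour Tconv and spleen Treg cells overlapped; the other neighbours in this order did not overlap on any array. Leaving out single arrays ended 2 of the calls between cell types. The spleen Treg against Tconv call was lost without spleen Treg replicate 2 (1.21, limma adjusted p = 0.051). The spleen CD8 against Tconv call was lost without spleen Tconv replicate 1 (-1.21, limma adjusted p = 0.0646) or replicate 2 (-1.31, limma adjusted p = 0.0545). Without all arrays of replicate number 2 or 3, the tumour Treg against Tconv call was lost (limma adjusted p = 0.123 and 0.0755), as was the spleen one (limma adjusted p = 0.242 and 0.167). The spleen CD8 against Tconv call was lost whichever replicate number was left out (limma adjusted p of 0.072 to 0.237).

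Macrophage markers and the dendritic cell marker Clec10a moved with tissue beside Dusp1, although the sorting gates excluded CD11b+ cells. The summed intensity of the macrophage markers was taken over 20 probes of 14 genes. Cd14 was not detected in tumour Treg cells and Itgam, which encodes CD11b, was not detected in tumour Tconv cells; Itgam, Fcer1g and Cd14 were not detected in spleen Treg cells. On BeadChips 1, 2 and 3 the sum was 2120, 1070 and 632 in tumour Treg cells, against 838, 170 and 74.5 in spleen Treg cells. It was 2000, 2180 and 1450 in tumour CD8 cells, against 592, 89.1 and 136 in spleen CD8 cells. It was 2150, 1850 and 649 in tumour Tconv cells, against 691, 200 and 72.3 in spleen Tconv cells. The tumour array thus had the higher sum on every BeadChip, and the part of macrophage RNA in the Dusp1 differences was not tested. Dendritic cell markers (5 genes) separated the tissues without overlap, with sums of 313 to 494 in tumour Treg, 385 to 680 in tumour CD8 and 269 to 676 in tumour Tconv cells, against 6.54 to 66.5 in the spleen groups. Of these markers Clec10a, a lectin receptor, was higher in tumour by 4.46 ± 0.33 in Treg cells (limma adjusted p = 3.25e-06), 4.51 ± 0.33 in CD8 cells (6.58e-06) and 4.70 ± 0.33 in Tconv cells (2.24e-06). Its spleen means were 4.23 in Treg, 4.48 in CD8 and 4.18 in Tconv cells, beside lowest detected values of 4.21 to 4.25 on the spleen arrays. Clec10a was not detected in spleen Tconv cells, so the difference there is one against background. The list as a whole did not move, with a median difference of -0.05 in Treg, 0.11 in CD8 and 0.02 in Tconv cells. Besides Clec10a only Zbtb46 was called between tissues, higher in tumour Treg cells by 0.99 ± 0.20 (limma adjusted p = 0.014), and it was not detected in spleen Treg cells. Flt3 and Xcr1 were not detected in tumour Treg cells, Flt3 and Zbtb46 in tumour CD8 cells, and Itgax and Zbtb46 in tumour Tconv cells. The part of dendritic cell RNA was not tested. Erythroid marker sums ran the other way, at 39.9 to 3230 in the tumour groups against 6320 to 30500 in the spleen groups, and their part was not tested either. Melanoma marker sums were 259 to 415 in tumour Treg, 80.3 to 382 in tumour CD8 and 110 to 632 in tumour Tconv cells, against 49.6 to 114 in the spleen groups, and the part of melanoma RNA was not tested.

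**Figure D2:**
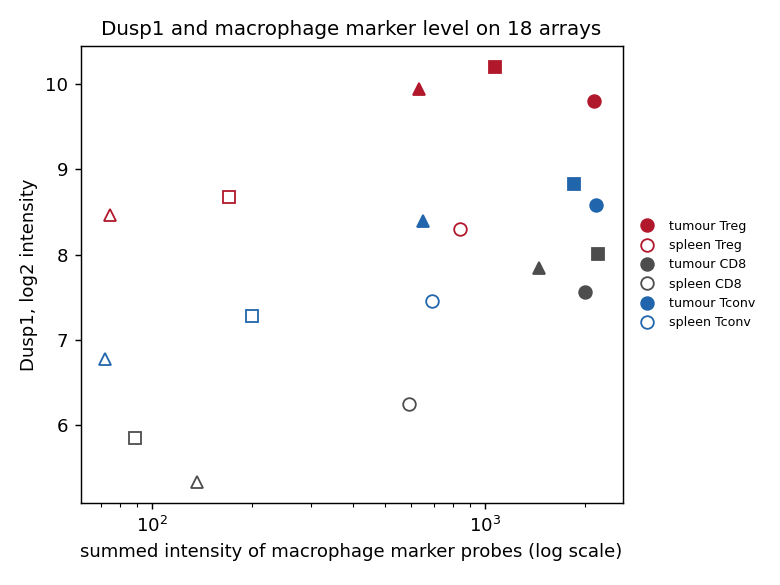
Dusp1 log2 intensity (y axis) against the summed intensity of macrophage marker probes (x axis, log scale) on each of 18 arrays, with tumour filled and spleen open, Treg red, CD8 grey and Tconv blue, and circle, square and triangle for BeadChips 1, 2 and 3. For each cell type and BeadChip the tumour array lies to the right of its spleen array and above it, as for Treg cells on BeadChip 3 (632 and 9.94 in tumour, 74.5 and 8.46 in spleen).

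Dusp4 marked Treg cells in both tissues and was higher again in tumour Treg cells. It encodes a nuclear phosphatase that acts on ERK and JNK. Probe 1 read 8.50, 8.37 and 8.61 in tumour Treg cells and 7.27, 6.75 and 7.22 in spleen Treg cells. In CD8 cells it read 5.30, 4.83 and 4.78 in tumour, against 4.09, 4.12 and 5.38 in spleen, where 1 of 3 arrays detected it. In Tconv cells it read 4.67, 4.82 and 5.16 in tumour, against 5.14, 4.64 and 4.29 in spleen. At probe 1 all 6 Treg arrays lay above the other arrays, the lowest Treg reading being 6.75 and the highest other reading 5.38, and probe 3 separated them as well. At probe 2 spleen Treg replicate 2 (6.31) lay below tumour CD8 replicate 1 (6.51), and at probe 4 the same array (5.10) lay below tumour CD8 replicate 1 (5.22). The 4 probes had pairwise correlations of 0.95 to 0.98 over the 18 arrays, which share group structure.

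In tumours, Dusp4 was higher in Treg than in Tconv cells by 3.61 ± 0.31 at probe 1 (12.2-fold, limma adjusted p = 1.24e-05). Probes 2, 3 and 4 gave 3.64 ± 0.43, 2.93 ± 0.32 and 2.85 ± 0.26, with limma adjusted p of 1.81e-04, 1.15e-04 and 1.9e-05. Probe 4 was not detected on any Tconv array, so its tumour Treg level is best given as at least 6.89-fold higher. This bound sets the tumour Treg mean against the mean of each Tconv array's lowest detected signal or the probe's own, whichever was higher. Against tumour CD8 cells, the 4 probes were higher in Treg cells by 3.53 ± 0.31, 3.12 ± 0.43, 2.66 ± 0.32 and 2.49 ± 0.26, with limma adjusted p from 7.49e-06 to 4.49e-04. Probe 2 lost its call against CD8 cells without all arrays of replicate number 3 (limma adjusted p = 0.055). Tumour CD8 replicate 1 had the highest reading of the tumour CD8 arrays at each probe, 5.30 at probe 1, 6.51 at probe 2, 6.16 at probe 3 and 5.22 at probe 4.

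In spleens, Dusp4 was higher in Treg than in Tconv cells by 2.39 ± 0.31, 2.39 ± 0.43 and 2.26 ± 0.32 at probes 1, 2 and 3, with limma adjusted p from 5.58e-04 to 0.00802. Against spleen CD8 cells these probes were higher by 2.55 ± 0.31, 2.28 ± 0.43 and 2.17 ± 0.32, with limma adjusted p from 1.97e-04 to 0.00864. Without all arrays of 1 replicate number, probe 2 lost both calls whichever number was left out, with limma adjusted p up to 0.122 against CD8 and 0.173 against Tconv cells. Probe 3 lost its call against Tconv cells without number 2 (limma adjusted p = 0.0968) or number 3 (0.07) and against CD8 cells without number 2 (0.0887). Probe 1 lost its call against Tconv cells without number 2 (limma adjusted p = 0.0673). Probe 4, with 5.64, 5.10 and 5.52 in spleen Treg cells, was not detected in spleen CD8 or Tconv cells and was at least 2.25-fold and at least 2.29-fold higher (limma adjusted p = 0.0176 and 0.0183). Those 2 calls of probe 4 were lost without background correction, at 0.40 (limma adjusted p = 0.124) and 0.42 (limma adjusted p = 0.144). Against CD8 cells the call was also lost without spleen Treg replicate 1 or 3 or spleen CD8 replicate 1 (limma adjusted p of 0.0905, 0.0748 and 0.0617). Against Tconv cells it was lost without spleen Treg replicate 1 or 3 (limma adjusted p of 0.0962 and 0.0816) or any 1 of the spleen Tconv arrays (0.0632 to 0.066).

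Between tissues, Dusp4 was higher in tumour than in spleen Treg cells at all 4 probes, by 1.41 ± 0.31 (2.67-fold, limma adjusted p = 0.0245), 1.77 ± 0.43 (limma adjusted p = 0.0441), 1.32 ± 0.32 (limma adjusted p = 0.0479) and 1.60 ± 0.26 (limma adjusted p = 0.00252). The tumour and spleen arrays did not overlap at any of them. With the replicate number as a block, probe 3 was no longer past the threshold (limma adjusted p = 0.0711). Probes 1, 2 and 3 lost the call without any single one of the 6 Treg arrays, with limma adjusted p of 0.0545 to 0.122 for probe 1, 0.0825 to 0.192 for probe 2 and 0.0895 to 0.178 for probe 3. Probe 4 stayed past the threshold on each of those removals, with limma adjusted p up to 0.0189. It lost the call without all arrays of replicate number 2 (limma adjusted p = 0.155) or number 3 (limma adjusted p = 0.187). Markers moved in the same comparison. The Treg genes Foxp3, at 1 of its 4 probes, and Ctla4 were higher in tumour Treg cells by 0.90 ± 0.12 (limma adjusted p = 6.32e-04) and 0.89 ± 0.18 (0.0163). The 7 Treg marker probes had a median difference of 0.11 there, and 2 were called higher, beside 1.41% of all probes. Ctla4 was also higher in tumour in Tconv cells by 1.77 ± 0.18 (limma adjusted p = 8.83e-05) and in CD8 cells by 1.55 ± 0.18 (3.85e-04). Of the melanoma genes, Tyrp1, Dct and Pmel, each at 1 of 2 probes, were higher by 1.28 ± 0.29, 1.95 ± 0.46 and 2.25 ± 0.54 (limma adjusted p = 0.0325, 0.039 and 0.0447). The macrophage gene Fcer1g was higher by 1.26 ± 0.28 (limma adjusted p = 0.0288), beside the dendritic cell marker Clec10a given above. Their part in the Dusp4 difference was not tested.

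In CD8 and Tconv cells no Dusp4 probe passed the test between tumour and spleen. The differences ran from 0.34 to 0.92 in CD8 cells and from 0.04 to 0.65 in Tconv cells. The test of whether the tumour difference was larger in Treg than in Tconv cells gave 1.22 ± 0.43, 1.25 ± 0.60, 0.67 ± 0.46 and 1.56 ± 0.36 at the 4 probes, with limma adjusted p from 0.161 to 0.952, so no probe passed. Against CD8 cells it gave 0.98 ± 0.43, 0.84 ± 0.60, 0.49 ± 0.46 and 1.26 ± 0.36, again with no probe past the threshold. Probe 4 was detected on 0 Tconv arrays and on only 1 CD8 array, in tumour. Its values here thus mostly set the Treg change against background. Without background correction, probe 1 did pass in both tests of unequal differences, at 1.02 (limma adjusted p = 0.0216) against Tconv cells and 0.92 (limma adjusted p = 0.0359) against CD8 cells. The authors' deposited values gave 1.02 (limma adjusted p = 0.0186) and 0.97 (limma adjusted p = 0.0227). This call changed with the background step.

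**Figure D3:**
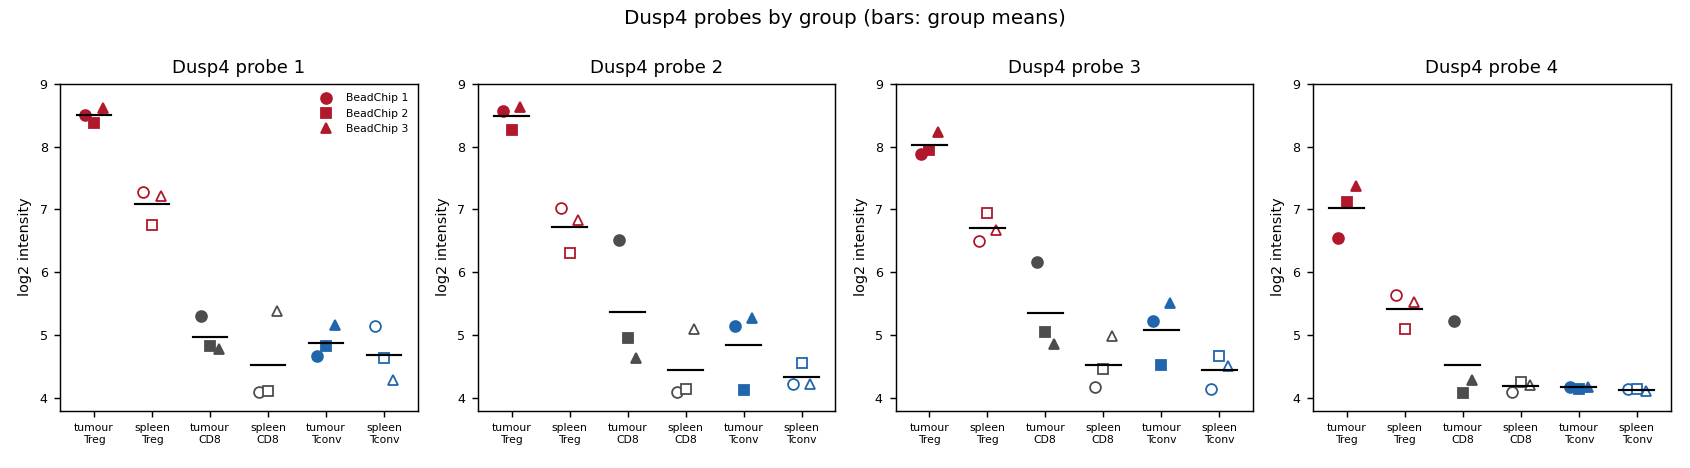
Log2 intensity (y axis) of the 4 Dusp4 probes in the 6 groups (x axis), with tumour filled and spleen open, Treg red, CD8 grey and Tconv blue, symbols for BeadChips and bars for group means. All 4 panels show tumour Treg arrays above spleen Treg arrays, and at probe 1 both lie above the highest other reading of 5.38.

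Dusp2, a nuclear phosphatase induced in activated lymphocytes, did not pass the test in any comparison at either of its 2 probes. Probe 1 read 6.95, 6.88 and 7.18 in tumour Treg cells, against 7.17, 8.02 and 7.55 in spleen Treg cells. In CD8 cells it read 6.52, 7.50 and 6.29 in tumour, against 5.90, 7.73 and 6.96 in spleen. In Tconv cells it read 6.47, 5.85 and 6.47 in tumour, against 7.29, 7.24 and 6.87 in spleen. At probe 1 the tumour Tconv arrays lay below all spleen Tconv arrays, with a difference of -0.87 ± 0.39 (limma adjusted p = 0.541), and the Treg groups and the CD8 groups overlapped. Probe 2 differed by -0.74 ± 0.23 in Treg cells (limma adjusted p = 0.16), -0.52 ± 0.23 in CD8 cells (limma adjusted p = 0.437) and -0.55 ± 0.23 in Tconv cells (limma adjusted p = 0.498). At that probe the tumour arrays lay below all spleen arrays in Treg and in Tconv cells, and the CD8 groups overlapped. All tumour minus spleen estimates of Dusp2 had a negative sign, but its probes correlated at only 0.59 over the 18 arrays.

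Dusp6, the ERK-selective cytoplasmic phosphatase, was lower in tumour Treg than in tumour CD8 cells at its brightest probe. Probe 1 read 8.22, 8.84 and 8.31 in tumour Treg cells, 9.48, 8.97 and 9.61 in tumour CD8 cells and 9.54, 9.16 and 9.18 in tumour Tconv cells. All tumour Treg arrays lay below all other tumour arrays. In spleen it read 8.86, 9.17 and 8.79 in Treg cells, 9.57, 9.00 and 9.77 in CD8 cells and 8.71, 9.07 and 8.90 in Tconv cells, and these groups overlapped.

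The tumour Treg minus CD8 difference of Dusp6 probe 1 was -0.90 ± 0.23, which is 1.86-fold lower (limma adjusted p = 0.0447). It was -1.25, -0.13 and -1.30 within BeadChips 1, 2 and 3. The call was lost with the replicate block (limma adjusted p = 0.0695), with arrays scaled to a common median instead of quantile-normalized (-0.45, limma adjusted p = 0.465), and with no filter on detection (limma adjusted p = 0.0734). It was also lost without tumour Treg replicate 1 or 3 (limma adjusted p = 0.175 and 0.139) and without tumour CD8 replicate 1 or 3 (limma adjusted p = 0.128 and 0.167). Against tumour Tconv cells the difference was -0.83 ± 0.23 and not past the threshold (limma adjusted p = 0.0838). The dimmer probes 2 and 3 differed by -0.29 and -0.53 between tumour Treg and CD8 cells and passed no test. Their correlations with probe 1 were 0.46 and 0.52, and with each other -0.16, over the 18 arrays, so the Dusp6 probes disagreed. Between tumour and spleen no Dusp6 probe passed, with probe 1 at -0.48 ± 0.23 in Treg cells (limma adjusted p = 0.476) and 0.40 ± 0.23 in Tconv cells (limma adjusted p = 0.697).

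Dusp10, which acts on JNK and p38, passed no test. Probe 1 read 6.78, 6.73 and 7.89 in tumour Treg cells, 7.45, 8.00 and 6.83 in tumour CD8 cells and 7.64, 7.73 and 7.60 in tumour Tconv cells. In spleen it read 6.67, 6.24 and 7.07 in Treg cells, 7.29, 6.62 and 6.85 in CD8 cells and 7.18, 7.31 and 7.92 in Tconv cells. The spleen Treg arrays lay below all spleen Tconv arrays at both probes, at -0.81 ± 0.34 (limma adjusted p = 0.523) and -0.67 ± 0.20 (limma adjusted p = 0.168). In tumours the Treg and Tconv arrays overlapped at probe 1, where tumour Treg replicate 3 stood above the other tumour Treg arrays. Probe 2 differed there by -0.58 ± 0.20 (limma adjusted p = 0.193).

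Dusp11, the RNA phosphatase, was bright and nearly level across the groups. Probe 1 read 10.33, 10.08 and 10.04 in tumour Treg cells and 10.13, 10.16 and 10.00 in spleen Treg cells, a difference of 0.05 ± 0.14. Its 6 group means ran from 9.86 to 10.18, and those of probe 2 from 9.29 to 9.56. In Tconv cells the tumour arrays (10.08, 10.39 and 10.07) lay above the spleen arrays (10.02, 9.58 and 9.97), by 0.32 ± 0.14, and this was not past the threshold (limma adjusted p = 0.529).

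**Figure D4:**
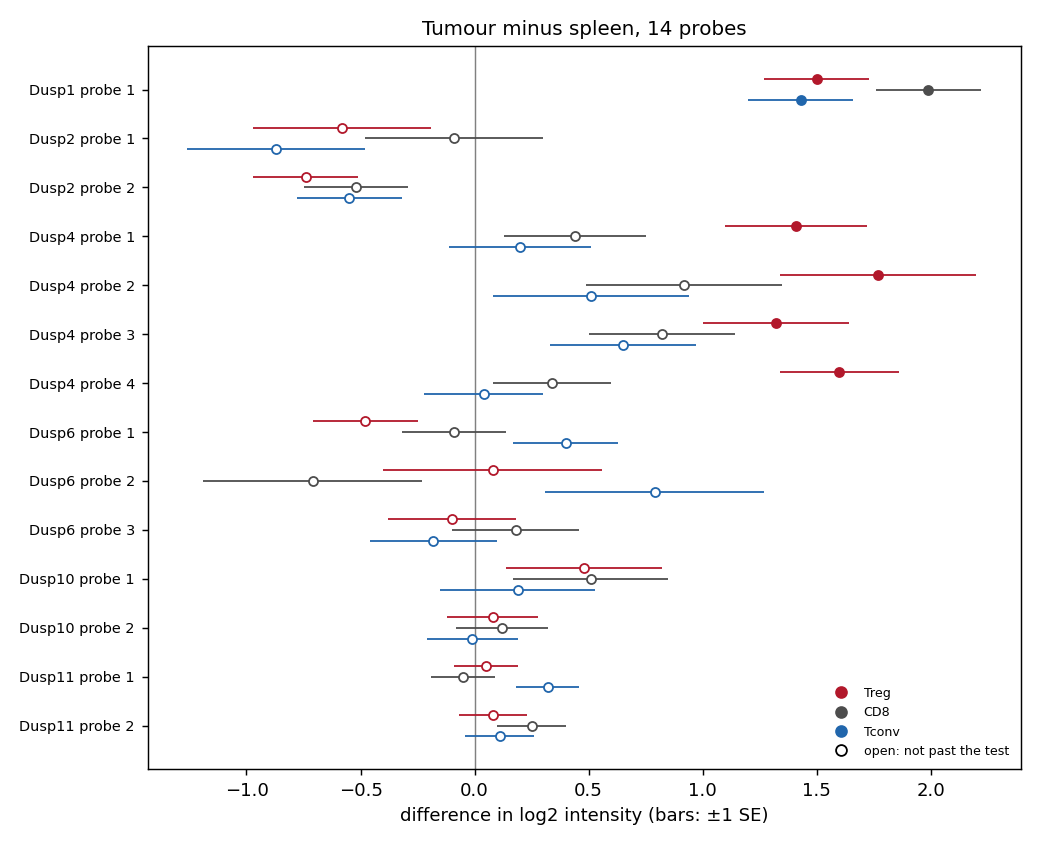
Tumour minus spleen difference in log2 intensity (x axis, bars ±1 SE) of 14 probes (y axis) in Treg (red), CD8 (grey) and Tconv cells (blue), with filled points past the test and open points not. Dusp1 lies between 1.43 and 1.99 in all 3 cell types, and the 4 Dusp4 probes are filled in Treg cells only.

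Over all probes, quantile normalization and median scaling split the calls differently. Median scaling moved the median of all probes by 0.11 in the Treg tumour against spleen comparison, by 0.11 in tumour Treg against CD8, by 0.12 in tumour Treg against Tconv and by at most 0.10 in the others. Of the calls between tumour and spleen, 388 were higher and 193 lower in Treg cells (865 and 74 after median scaling), 177 and 60 in CD8 cells (136 and 18), and 209 and 41 in Tconv cells (148 and 8). In tumours, 577 were higher and 351 lower in Treg than in CD8 cells (1168 and 160), and 416 and 202 in Treg against Tconv cells (1001 and 90). In spleens, 361 were higher and 233 lower in Treg than in CD8 cells (249 and 99), and 248 and 106 in Treg against Tconv cells (196 and 34). For unequal tumour differences, 30 were higher and 18 lower for Treg against CD8 cells (69 and 12), and 15 and 18 for Treg against Tconv cells (46 and 10).

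**Figure D5:**
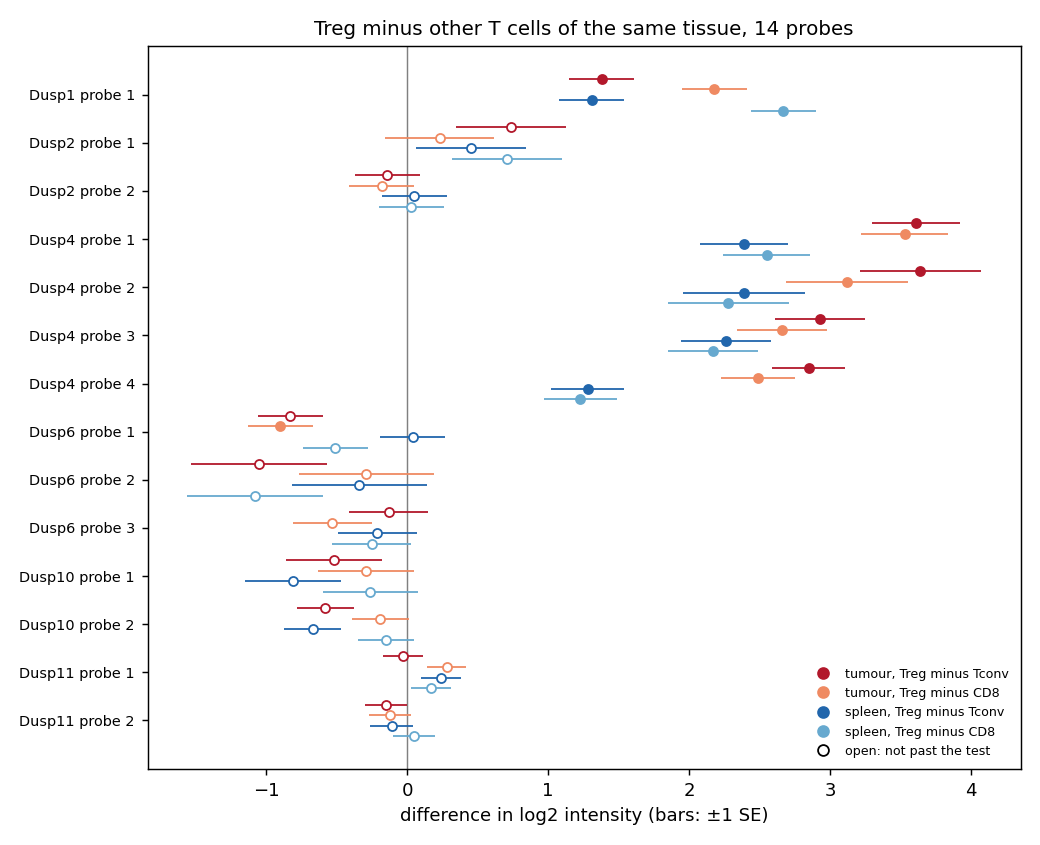
Treg minus CD8 or Tconv difference in log2 intensity (x axis, bars ±1 SE) of 14 probes (y axis) within tumour (red shades) and within spleen (blue shades), with filled points past the test and open points not. All Dusp1 and Dusp4 points are filled and positive, from 1.23 to 3.64, and the only filled negative point is Dusp6 probe 1 in tumour Treg against CD8 cells, at -0.90.

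Other genes of the same pathways were described from lists. Of 24 other dual-specificity and related phosphatases, 18 had a detected probe (32 probes). In each of the 11 comparisons limma called 0 of 32, where 1 to 6 had an unadjusted p under 0.05. Over all tested probes, 0.12% to 3.38% were called in either direction, so a count of 0 does not set this list apart. Of 33 probes of the ERK module, 1 was lower in tumour than in spleen in Treg cells (0.702% of all probes lower) and 1 in Tconv cells (0.149%). Both were the same probe of Rasgrp2, a Ras activator, at -1.11 ± 0.21 in Treg cells (limma adjusted p = 0.011) and -1.01 ± 0.21 in Tconv cells (limma adjusted p = 0.0346). It is 1 of 2 probes of this gene, and the other was not called. Within tumours the called Rasgrp2 probe was lower in Treg than in Tconv cells, at -0.86 ± 0.21 (limma adjusted p = 0.0483). Of 40 probes of the JNK and p38 modules, 0 passed between tumour and spleen in limma in any cell type, where 5 to 7 had an unadjusted p under 0.05. Over all probes, 2.11% were called there in Treg, 0.863% in CD8 and 0.91% in Tconv cells. Within tumours, Mapkapk3, a kinase activated by p38, was higher in Treg than in CD8 cells by 1.76 ± 0.36 at 1 of its 2 probes (limma adjusted p = 0.0108). No other probe of this list was called there, beside 2.1% of all probes higher and 1.28% lower. Mapk14, which encodes p38 alpha, was lower in Treg than in Tconv cells at -0.74 ± 0.15 (limma adjusted p = 0.0184). It was the only call of this list in that comparison, beside 1.51% of all probes higher and 0.735% lower. In spleens, Mapk11, which encodes p38 beta, was higher in Treg than in CD8 cells by 2.46 ± 0.47 at 1 of its 2 probes (limma adjusted p = 0.0106). The list had 1 probe higher and 1 lower there, beside 1.31% and 0.848% of all probes.

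Feedback inhibitors of ERK signalling other than phosphatases were called at 1 probe each in the tumour against spleen comparisons, of 19 probes, all higher (1.41%, 0.644% and 0.761% of all probes higher in Treg, CD8 and Tconv cells). Errfi1, an inhibitor of receptor tyrosine kinases, was higher in tumour by 1.71 ± 0.30 in Treg cells (limma adjusted p = 0.00539) and by 1.63 ± 0.30 in Tconv cells (limma adjusted p = 0.0145). Spry2, a Sprouty inhibitor of Ras and ERK signalling, was higher in tumour by 1.59 ± 0.20 in CD8 cells (limma adjusted p = 5.53e-04). Within tumours, Spry2 was lower in Treg than in CD8 cells at -1.88 ± 0.20 (limma adjusted p = 4e-05).

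Immediate early and ERK target genes, with 34 probes of 25 genes, had 5 probes of 3 genes higher and 1 lower in tumour than in spleen Treg cells, 3 probes of 1 gene higher in CD8 cells, and 4 probes of 2 genes higher and 2 lower in Tconv cells. Over all probes, 1.41% were higher and 0.702% lower in Treg cells, 0.644% and 0.218% in CD8 cells, and 0.761% and 0.149% in Tconv cells. The list had median differences of 0.16, 0.19 and 0.20, beside -0.01 over all probes. Fosl2, an AP-1 subunit, was higher in tumour by 4.09 ± 0.28 in Treg cells (limma adjusted p = 2.52e-06) and 2.92 ± 0.28 in CD8 cells (limma adjusted p = 8.22e-05). In Tconv cells it was higher in tumour by 3.46 ± 0.28 (limma adjusted p = 9.07e-06). Egr2, a transcription factor induced by the T cell receptor, was lower in tumour at -1.34 ± 0.26 in Treg cells (limma adjusted p = 0.0109) and -1.51 ± 0.26 in Tconv cells (limma adjusted p = 0.00763). Egr3, its paralog, was lower in tumour Tconv cells at 1 of its 2 probes, at -2.64 ± 0.37 (limma adjusted p = 0.00172). Within tumours the same Egr3 probe was higher in Treg than in Tconv cells by 2.65 ± 0.37 (limma adjusted p = 7.59e-04), and the other was not called.

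The genes whose levels most resembled each phosphatase were ranked by Pearson correlation of log2 values over the 18 arrays, which share groups and BeadChips. Dusp4 was closest to Foxp3 (r = 0.96), which encodes the Treg transcription factor that defines the gate, then to Sdc4 and Matk (both 0.95). Dusp1 was closest to Glrx (0.95), Icos, a costimulatory receptor (0.94), and Mgarp (0.94). The closest genes of the other 4 were less alike, with the nearest being Sptlc1 for Dusp2 (0.83), Slc11a2 for Dusp6 (0.82), Ranbp10 for Dusp10 (0.80) and Rbak for Dusp11 (0.81). Between the phosphatases themselves, the brightest probes of Dusp1 and Dusp4 had r = 0.75, Dusp4 and Dusp6 r = -0.66, and Dusp1 and Dusp6 r = -0.58.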

How the data were processed

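Illumina bead intensities with detection p-values, and a second value table, were deposited by the authors per the file headers; the labels and file headers do not state how the second table was made. Its values are on a linear intensity scale with medians of 83.5 to 85.9 and rank correlations with the raw signals of at least 0.999. A further 36 columns, holding bead numbers and bead standard deviations, were not used. Probe names came from the platform annotation: of 46237 probes, 35784 had 1 gene symbol, 0 several and 10453 none, with 28620 names updated by Entrez number, 2637 by accession and 4527 kept.

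From the deposited intensities and detection p-values, log2 values were computed with limma 3.58.1 in R 4.3.3 (neqc: normexp background correction, offset 16, quantile normalization), so the deposited scale became log2. Probes detected at p under 0.05 on at least 3 arrays were kept. One mean per group was fitted to all 18 arrays (lmFit, eBayes), and Benjamini-Hochberg adjustment covered all 27474 probes of each of 11 comparisons, with a threshold of 0.05. The fit and the adjustment were tested on simulated log2 values of the kept probes, with known changes in the tumour Treg arrays. The background correction, normalization and filter were not part of that test.

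Replicate numbers mark BeadChips in the labels, so they pair arrays across groups. Residual correlations averaged 0.0423 for same-numbered and -0.0209 for other arrays, 5 of 45 same-numbered pairs were above 0.1, and 16 of 18 arrays correlated best with their own number. Replicates of a group correlated at 0.903 to 0.968.

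The members and lists were chosen with earlier results of these data known. The text names every member probe and may name, from each list within a comparison, genes among the 3 with the smallest p past the threshold and up to 3 most alike genes per member. Alternatives were the replicate block, median scaling, no background correction, the authors' table, no detection filter, 1 probe per gene, only the groups compared, and leaving out arrays.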

Additional observations from a re-analysis of the deposited data

How the results depend on the processing

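Of 154 results for single Dusp probes, 29 were called; 10 of these kept the call under all alternatives and 19 lost it under at least 1. Of the 125 others, 4 gained a call under at least 1 alternative. No called value changed sign. Of 2089 alternative values called neither there nor above, 167 had the other sign. Apart from Dusp4 probe 3 in Treg cells (tumour against spleen) and Dusp6 probe 1 (tumour Treg against CD8 cells), both given above, the replicate block changed no call of a Dusp probe.

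Counts over all probes are listed as alternative count against the count given above. With median scaling they were 939 against 581 (Treg, tumour against spleen), 154 against 237 (CD8), 156 against 250 (Tconv), 1091 against 618 (tumour Treg against Tconv), 58 against 104 (tumour CD8 against Tconv), 348 against 594 (spleen Treg against CD8), 230 against 354 (spleen Treg against Tconv), 74 against 177 (spleen CD8 against Tconv), and 81 against 48 and 56 against 33 for unequal tumour differences against CD8 and Tconv cells. The last became 50 both without background correction and with the authors' table, where 1 Dusp probe rather than 0 was called in each of these tests. With no filter, 3 rather than 5 Dusp probes were called in Treg cells between tissues. With 1 probe per gene, fewer probes were tested: 356 were called in Treg cells between tissues, 397 in tumour Treg against Tconv, 233 in spleen Treg against Tconv and 20 for the unequal difference against Tconv; 2 Dusp genes stood in place of each 5 probes, and 3 in place of 6 for tumour Treg against CD8. With only the groups compared, on fewer arrays, the counts were 19 in CD8 and 90 in Tconv cells between tissues, 418 (tumour Treg against CD8), 263 (tumour Treg against Tconv), 30 (tumour CD8 against Tconv), 304 (spleen Treg against CD8), 39 (spleen CD8 against Tconv) and 28 (unequal difference against CD8). Dusp1 then lost its call in CD8 cells (limma adjusted p = 0.0996) and Tconv cells (0.0823) between tissues and in spleen CD8 against Tconv cells (0.333), leaving 0 Dusp probes called in each, and in spleen Treg against Tconv cells (0.0585), leaving 4.

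Leaving out 1 array, or all arrays of a number, gave ranges of 122 to 524 probes (Dusp probes 0 to 2) in Treg, 70 to 275 (0 to 1) in CD8 and 60 to 208 (0 to 1) in Tconv cells between tissues. In tumours they were 304 to 818 for Treg against CD8, 181 to 546 for Treg against Tconv and 25 to 106 for CD8 against Tconv. In spleens they were 151 to 591 (2 to 5) for Treg against CD8, 79 to 274 (0 to 4) for Treg against Tconv and 42 to 207 (0 to 1) for CD8 against Tconv. Unequal differences gave 0 to 66 (0 to 1) against CD8 and 0 to 44 against Tconv cells. The causes were not tested. Signal over background limits Dusp4 probe 4 and the dimmer Dusp4 readings outside Treg cells.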
